A study of Gallus gallus with 6 samples.

Results

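Secreted glycoproteins and one large proteoglycan of the embryonic extracellular matrix were followed in the anterior and posterior parts of the chick sclerotome. The genes were TNC (tenascin-C), OSF-2 (periostin, whose RefSeq symbol is POSTN), TGFBI, SPON1 (F-spondin), SPON2, THBS1 and THBS2 (thrombospondins), FN1 (fibronectin) and VCAN (versican). They were taken by symbol from the deposited gene table, and 9 of 9 had a row among 17108 gene rows. The authors tested 8 of them and marked SPON2 as not tested.

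Anterior and posterior half-sclerotomes were dissected by the submitters from wild-type chick embryos of embryonic day 3, Hamburger-Hamilton stage 18. Somites 11 to 23 from the caudal end were used, and each library came from a pool of 100 half-sclerotomes, with 3 libraries of each kind. The labels do not say whether the pools came from separate embryos, so the authors' p-values may measure partly technical spread. The deposited levels are FPKM, fragment counts scaled by transcript length and by a measure of library size. The table holds 1 value per group and none per library. No standard error can therefore be set beside a level, the depth of the libraries is unknown, and the authors' q-value is the measure of error that the table offers. A gene is called higher in a group below when the authors' q was under 0.05.

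The sclerotome is the ventral, mesenchymal part of the somite that forms the vertebral column. Neural crest cells and motor axons cross its anterior part and avoid its posterior part, and the matrix they meet there has long been studied as a cue. Tenascin-C, periostin and the thrombospondins are matricellular proteins, which modulate adhesion and are not mainly structural. Fibronectin is the adhesive fibril that many migrating cells use through integrins. F-spondin is known in chick as a posterior sclerotome protein that confines the routes of crest cells and axons. Versican carries chondroitin sulfate chains, binds hyaluronan, and is known as a barrier to crest cells and axons in chick.

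Sclerotome markers were present in both groups, with PAX1 at 367 FPKM (anterior) and 490 FPKM (posterior) and FOXC2, a forkhead factor of sclerotome, at 185 and 179 FPKM. UNCX, which marks the posterior part, was measured at 1.45 FPKM anteriorly and 87.8 FPKM posteriorly, and TBX18, which marks the anterior part, at 32.5 and 3.10 FPKM. Among 10529 tested genes of the authors' deposited table, 744 were called, which is 7.07%, with 3.57% higher in posterior and 3.5% higher in anterior.

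Of the 8 tested matrix genes, 3 were higher in anterior (TNC, OSF-2 and FN1) and 1 in posterior (SPON1), against the 7.07% called among all tested genes. These genes were chosen with earlier results in view, so that contrast describes them and supports nothing further. THBS1, THBS2, TGFBI and VCAN were not called. The median log2 ratio of posterior over anterior was -0.17 for the 8 genes and 0.00459 for all tested genes. Their median absolute log2 ratio was 0.54, against 0.15 for all tested genes. Among the 7 tested members with a mean of at least 10 FPKM, 4 were called, and 5.76% of the 7053 tested genes at that level were.

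**Figure D1:**
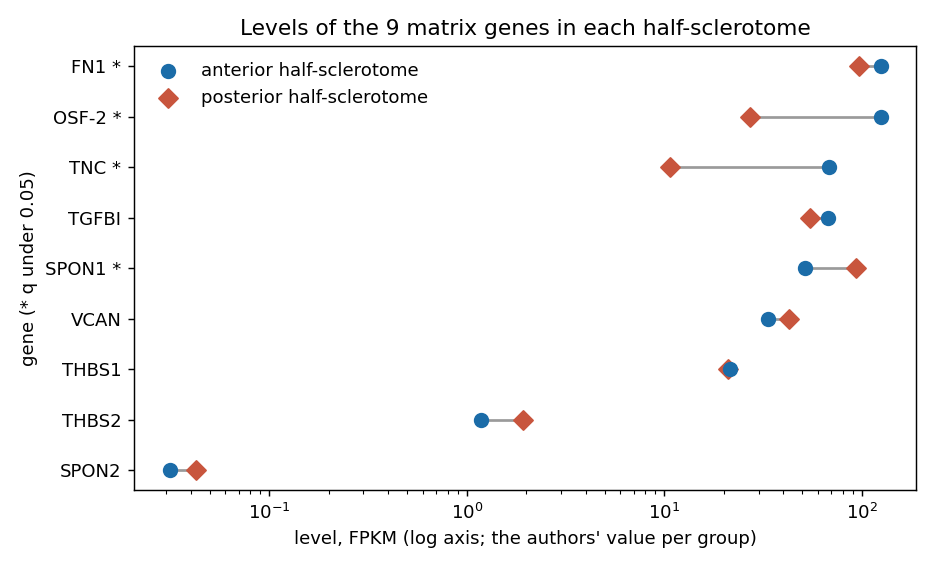
Levels of the 9 genes in FPKM on a log axis, with a circle for the authors' anterior value and a diamond for the posterior value of each gene, and no error bars because the table holds 1 value per group. TNC and OSF-2 have the longest lines, from 67.8 to 10.7 FPKM and from 125 to 27.0 FPKM, and the symbols of THBS1 nearly coincide.

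TNC encodes a large hexameric glycoprotein that loosens the adhesion of cells to fibronectin. Its level dropped from 67.8 FPKM in the anterior to 10.7 FPKM in the posterior part. That is 6.34-fold higher in anterior, a log2 ratio of -2.67, at the lowest p-value of the authors' deposited table, 5e-05, where q = 0.00139. Of 368 genes called higher in anterior, 27 had a ratio at least as far toward anterior, TNC included. Of the 61 of them that had at least the mean level of TNC, 6 including TNC itself had a ratio as large. Per unit of transcript length, TNC lay above 85.0% of all tested genes in anterior and above 35.0% in posterior. The gene lies on galGal4 chromosome 17 from 2640785 to 2707385, and no other row of the table overlaps it.

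OSF-2 encodes periostin, a fasciclin-domain protein that binds collagen, fibronectin and tenascin-C. It stood at 125 FPKM anteriorly and 27.0 FPKM posteriorly, 4.61-fold higher in anterior (log2 ratio -2.21; the authors' deposited table gives q = 0.00139). The difference in level was -97.5 FPKM, posterior minus anterior, which ranked 13 among genes called higher in anterior. In anterior half-sclerotomes periostin mRNA was at the level of fibronectin (125 FPKM each), whereas in posterior FN1 was 3.58 times OSF-2. Whether such differences between genes exceed the spread of the libraries could not be tested, because no value per library is given. OSF-2 lies on chromosome 1 from 171293438 to 171327674 with no overlapping row.

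TGFBI is the closest relative of periostin among the members, with the same arrangement of fasciclin domains, and binds integrins and collagen. Its levels were 67.5 FPKM anteriorly and 54.8 FPKM posteriorly, a log2 ratio of -0.30 that was not called (the authors' deposited table gives q = 0.491). TGFBI and TNC thus had nearly the same level in anterior, while in posterior TGFBI was 5.13 times TNC. The authors' locus for TGFBI, chromosome 13 from 14295426 to 14509385, is shared with 4 other rows. SMAD5, a signal transducer of the BMP pathway, is one of them, at 93.2 and 104 FPKM, so reads could have been divided between these rows.

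Markers of several cell types other than sclerotome moved with the groups in the same direction as TNC and OSF-2. Over all 11 marker lists, those of sclerotome and half-sclerotome identity included, 50% of 46 tested genes were called, against 7.07% of all tested genes. Of these 23 calls, 14 were higher in anterior and 9 in posterior. The lists were chosen with earlier results of these data known. In neural crest and Schwann precursor markers, 5 of 8 tested were higher in anterior, with 0 in posterior, and their summed level was 346 FPKM anteriorly and 168 FPKM posteriorly. No marker of that list was at 0, and single markers ranged from 4.30 to 103 FPKM in anterior and from 0.240 to 79.3 FPKM in posterior. SOX10, a crest and glial factor, was at 103 and 4.92 FPKM. NGFR, a neurotrophin receptor gene, and ETS1, a transcription factor gene that endothelium also expresses, were not called, at 80.8 and 79.3 FPKM and at 50.9 and 62.6 FPKM, and they make most of the posterior sum. Dermomyotome and myotome markers gave 5 of 7 higher in anterior and 0 in posterior, with sums of 78.4 and 32.6 FPKM, again with none at 0. PAX3, a dermomyotome factor, was at 10.2 and 1.22 FPKM. DES, whose row shares its locus with another, was not called, at 36.9 and 21.3 FPKM, and makes most of the posterior sum. MYOD1 was not tested, at 0.701 and 0.584 FPKM. Limb and lateral plate markers gave 2 of 3 higher in anterior, with sums of 26.9 and 12.7 FPKM and with TBX5 at 0 in both groups. Most of the difference in these sums came from TBX2, at 13.5 and 1.48 FPKM. PRRX1 was not called, at 10.5 and 9.26 FPKM, and makes most of the posterior sum. TBX3 was not tested, at 1.03 and 1.27 FPKM. Neuron markers gave 1 of 2, with sums of 84.2 and 49.2 FPKM. The part of these cells in the tenascin and periostin values was not tested, and in bulk RNA fewer cells of a type and less RNA per cell cannot be told apart.

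SPON1 encodes F-spondin, a secreted protein with thrombospondin type repeats that adheres to matrix and acts on axons. The levels were 51.8 FPKM for the anterior and 93.8 FPKM for the posterior part. F-spondin was 1.81-fold higher in posterior, with a log2 ratio of 0.86, for which the authors' deposited table gives q = 0.00139. The level was 42.0 FPKM higher in posterior, and SPON1 ranked 5 among the 9 genes in anterior and 2 in posterior. The lower posterior levels of OSF-2 (27.0 FPKM) and TNC (10.7 FPKM) account for part of that change of rank. Its ratio was moderate among posterior genes, since 169 of the 376 genes called higher in posterior had one at least as large. Of the 40 of them with at least its mean level, 10 including SPON1 itself had a ratio as large. The gene spans chromosome 5 from 5838066 to 6002800 with no overlapping row.

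SPON2, the other spondin, was close to absent from both groups, at 0.0313 FPKM anteriorly and 0.0426 FPKM posteriorly, and the authors did not test it. With levels this low and no read counts, its ratio carries no comparison.

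The thrombospondins are secreted oligomeric proteins that bind integrins, CD47 and LRP1 and that regulate adhesion and TGF-beta activation. THBS1 had 21.5 FPKM anteriorly and 20.9 FPKM posteriorly, a log2 ratio of -0.04 (the authors' deposited table gives q = 0.954). Of all tested genes, 13.7% had a smaller absolute log2 ratio. THBS2 was at 1.18 and 1.93 FPKM, a log2 ratio of 0.71 that was not called (the authors' deposited table gives q = 0.0907). THBS2 was thus as far from equality as many called genes, but its anterior level lay above only 1.14% of tested genes. The level of THBS1 was 18.2 times that of THBS2 in anterior and 10.8 times in posterior.

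In anterior, FN1 and OSF-2 were nearly equal at 124.8 and 124.5 FPKM, a difference that could not be tested. FN1 had the highest value of the 9 genes per transcript length in both groups, at 125 FPKM anteriorly and 96.5 FPKM posteriorly. The anterior level was 1.29-fold higher (log2 ratio -0.37; the authors' deposited table gives q = 0.0444). This was the smallest called difference of the 4, and the call ended at a q threshold of 0.01 or where at least 1.5-fold was asked. It also ended where the deposited test statistic of -1.71 was read as a normal deviate, a check chosen after the values were seen, which gives an unadjusted 2-sided p of 0.0870 and an adjusted p of 0.9998 over 10473 genes. Under that reading TNC, OSF-2 and SPON1 were called as before. The table gives gene totals, so fibronectin splice forms could not be compared.

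VCAN lay on the other side of the same threshold. Versican mRNA was at 33.3 FPKM anteriorly and 42.6 FPKM posteriorly, 1.28-fold higher in posterior by value (log2 ratio 0.35; the authors' deposited table gives q = 0.0630). FN1, just inside q of 0.05, and VCAN, just outside it, thus had differences of like size in opposite directions. In anterior TNC was 2.03 times VCAN, and in posterior VCAN was 3.98 times TNC. VCAN is the one member on chromosome Z, from 62474981 to 62580840. On that chromosome 67.9% of 495 tested genes had a ratio above 0 and the median log2 ratio was 0.13, against 49.5% of genes and a median of -0.00144 on the numbered chromosomes.

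**Figure D2:**
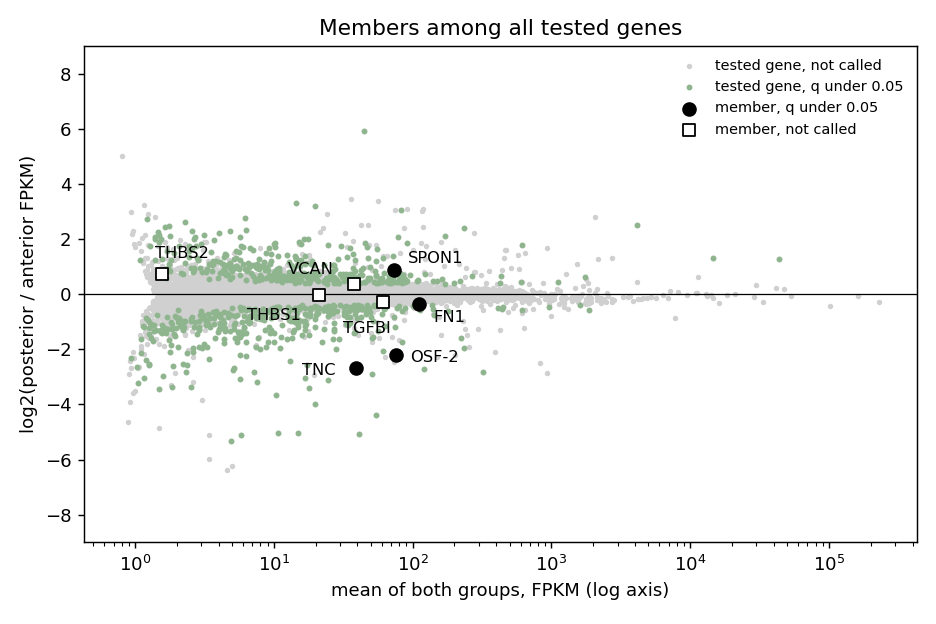
Log2 ratio of posterior over anterior FPKM against the mean FPKM of both groups (log axis) for all tested genes with a value above 0 in both, with called genes in green, called members as filled circles and other tested members as open squares. TNC and OSF-2 lie at -2.67 and -2.21, SPON1 at 0.86, and FN1 at -0.37 at the edge of the called genes.

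Several endothelial markers moved in the same direction as SPON1. Of 11 tested, 6 were higher in posterior, with 0 in anterior and with sums of 139 and 199 FPKM in anterior and posterior and none at 0. Single endothelial markers ranged from 0.620 to 34.0 FPKM in anterior and from 2.45 to 44.2 FPKM in posterior. PECAM1 at 14.3 and 14.0 FPKM, KDR at 7.37 and 7.46 FPKM and ERG at 34.0 and 38.4 FPKM were among those not called. Sclerotome markers themselves gave 2 of 4 higher in posterior, with sums of 626 and 776 FPKM. Their part in the SPON1, VCAN and THBS2 values was not tested. Surface ectoderm, red blood cell and leukocyte markers gave 0 calls among 4, 3 and 1 tested genes, and none of these genes had an unadjusted p under 0.05 in the authors' deposited table. Their sums in anterior and posterior were 16.9 and 15.6 FPKM for ectoderm, 525 and 446 FPKM for red blood cells, in which HBZ was at 0 in both groups and HBAA in anterior, and 2.72 and 1.79 FPKM for leukocytes. Notochord and floor plate markers gave 0 calls with 1 tested, which had an unadjusted p under 0.05, and sums of 4.69 and 5.83 FPKM.

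The make-up of this small set of transcripts differed between the groups. FPKM summed over the 9 genes was 492 in anterior and 348 in posterior, a ratio of 1.41. Without TNC and OSF-2 the sums were 300.1 and 311 FPKM. TNC and OSF-2 together made 39.1% of the sum in anterior and 10.8% in posterior. FN1 made a like share of both, 25.4% and 27.7%, while SPON1 made 10.5% and 26.9%. Because the sum was lower in posterior, a share can rise while the level falls, as for FN1 at 125 and 96.5 FPKM. The share of SPON1 likewise changed more than its level, which was 1.81-fold higher. From high to low, the anterior order was FN1, OSF-2, TNC, TGFBI, SPON1, VCAN, THBS1, THBS2 and SPON2. In posterior it was FN1, SPON1, TGFBI, VCAN, OSF-2, THBS1, TNC, THBS2 and SPON2. Which neighbours in these orders differ beyond the spread of the libraries cannot be said from 1 value per group.

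Tested genes around TNC, OSF-2 and SPON1 on their chromosomes gave no call in the direction of the member. Those around FN1, the other called member, gave 1. Over all tested genes 3.5% were called higher in anterior and 3.57% in posterior. With 11 to 18 tested genes in each of these 4 windows, an absence of such calls is near these shares. Neither it nor 1 call sets a member apart. The share of all tested genes at an unadjusted Cuffdiff p under 0.05 was not counted. Within 1000 kb on either side of TNC, 16 genes were tested and 0 were called (3 at an unadjusted Cuffdiff p under 0.05), with log2 ratios from -0.70 to 0.41. Around OSF-2 there were 11 tested genes with 0 called (1 at an unadjusted Cuffdiff p under 0.05), from -0.998 to 0.23. Around SPON1, 18 were tested and their highest log2 ratio was 0.17, with 2 called higher in anterior, SYT9 and WT1. Around FN1, 12 were tested and 1 was called, RAMP1, higher in anterior like FN1 (log2 ratio -1.19; the authors' deposited table gives q = 0.0473). The uncalled members THBS1, THBS2 and TGFBI had 26, 20 and 29 tested genes around them. Of these, 2, 1 and 2 were called higher in posterior and 1, 2 and 2 in anterior. On chromosome Z, 67.9% of 495 tested genes had a ratio above 0. VCAN had 8 tested genes around it, and 8 of 8 had a ratio above 0. Their median log2 ratio was 0.32, close to the 0.35 of VCAN itself, and 4 were at an unadjusted Cuffdiff p under 0.05. Only HAPLN1 among these was called, at 14.2 and 21.1 FPKM (log2 ratio 0.58; the authors' deposited table gives q = 0.0257). It encodes the link protein that ties versican to hyaluronan, and its locus ends 34.2 kb from that of VCAN. XRCC4 and ATP6AP1L had larger log2 ratios than HAPLN1, 0.71 and 0.79, and were not called (the authors' deposited table gives q = 0.0520 and 0.0879).

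**Figure D3:**
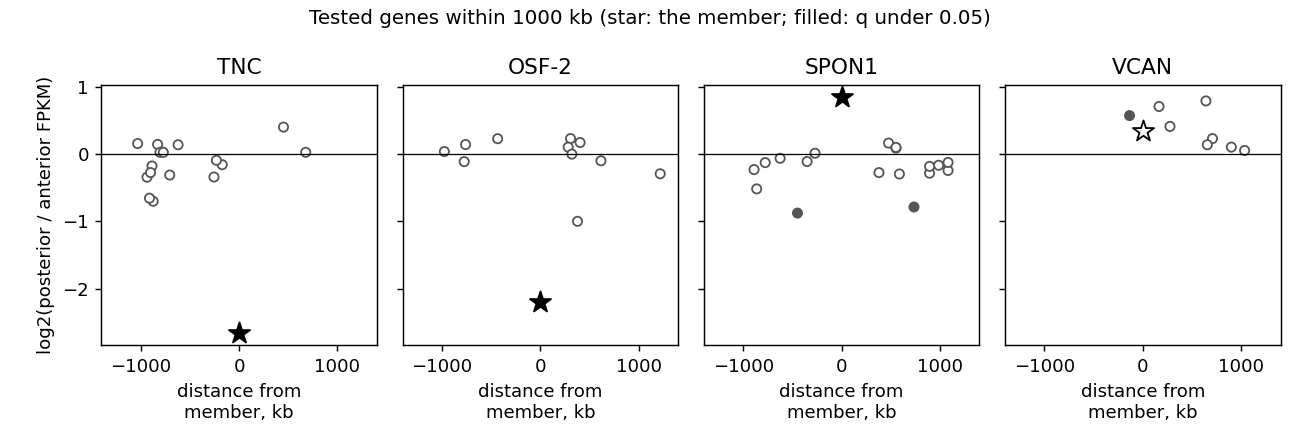
Log2 ratio of posterior over anterior FPKM of tested genes within 1000 kb of TNC, OSF-2, SPON1 and VCAN against the distance between gene centres in kb, with the member as a star at 0 and filled symbols for q under 0.05. The stars of TNC and OSF-2 lie below all their plotted neighbours and that of SPON1 above all of its own. That of VCAN lies among 8 neighbours that are all above 0. The members were chosen with earlier results known, and what sets these positions was not tested.

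Genes whose levels came closest to the called members in both groups at once were sought among 9506 other tested genes with a symbol. With 2 values per gene this likeness covers level and ratio only. TNC was nearest to CRABP-I, a cytoplasmic retinoic acid binding protein gene, at 90.0 and 12.1 FPKM (distance 0.45 log2 units) and then to LBH at 44.2 and 14.4 FPKM (0.75). OSF-2 was nearest to MYL4, a myosin light chain gene, at 98.4 and 23.8 FPKM (0.38), and then to the row gga-mir-6683 at 105 and 35.9 FPKM (0.48). That row shares its locus with another and was not called (the authors' deposited table gives q = 0.906). SPON1 was nearest to PIK3IP1 at 55.0 and 98.4 FPKM (0.11) and to the connexin gene GJA1 at 55.6 and 88.2 FPKM (0.14). FN1 had SERPINE2, a secreted protease inhibitor gene, at 130 and 96.0 FPKM (0.06) and TOMM20, a mitochondrial import gene, at 121 and 99.7 FPKM (0.07) beside it. Both rows share their locus with another, and TOMM20 was not called (the authors' deposited table gives q = 0.228).

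Receptors, relatives and partners of the member proteins were grouped into 8 lists of 123 genes in all. Of these, 104 had a row and 78 were tested, and 11 were called in each direction, 28.2% against the 7.07% of all tested genes. With the deposited test statistic read as a normal deviate, 1 was higher in anterior and 4 in posterior. The lists were chosen with earlier results of these data known. The contrast of 28.2% with 7.07%, and the shares of single lists below, thus describe them and support nothing further.

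**Figure D4:**
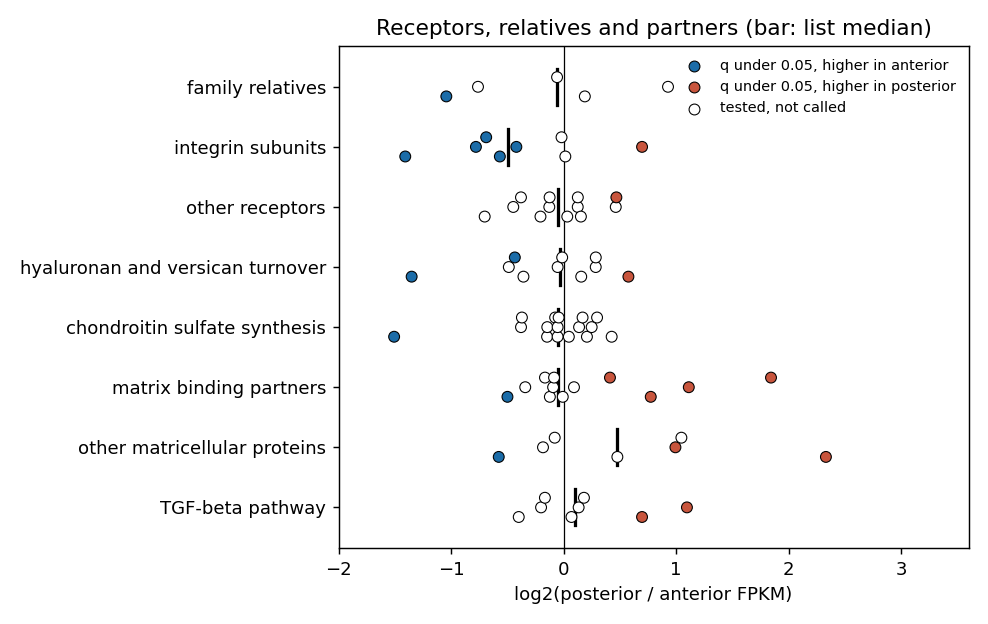
Log2 ratio of posterior over anterior FPKM of each tested gene in the 8 lists, with the list median as a bar, blue for genes called higher in anterior, red for posterior and white for genes not called. Integrin subunits lie toward anterior, with a median of -0.49, and the medians of the other lists lie between -0.06 and 0.48.

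Integrins are the heterodimeric receptors through which cells bind fibronectin, tenascin-C, periostin, TGFBI and thrombospondins. Of 8 tested subunits, 5 were called higher in anterior and 1 was called higher in posterior, 75% against 7.07% of all tested genes. The median log2 ratio was -0.49, against 0.00459 for all tested genes. ITGA4, the alpha subunit of a fibronectin receptor of crest cells, was at 54.7 and 20.6 FPKM (the authors' deposited table gives q = 0.00139). ITGA8, whose product binds tenascin-C and fibronectin, was at 9.78 and 5.70 FPKM (the authors' deposited table gives q = 0.00139). The alpha-V subunit gene ITGAV was at 31.1 and 23.2 FPKM, and its beta partners ITGB3 and ITGB5, which form periostin receptors with it, were at 25.6 and 15.9 and at 45.6 and 30.8 FPKM. ITGA9, the alpha subunit of another tenascin-C receptor, was the exception, at 14.6 and 23.7 FPKM (log2 ratio 0.70; the authors' deposited table gives q = 0.00139). ITGB1, the beta subunit that pairs with the alpha subunits ITGA4, ITGA8 and ITGA9, was the most abundant at 224 and 221 FPKM and was not called. Without rows that share a locus, which takes away ITGA4, ITGA9 and ITGAV, 3 of 5 tested were higher in anterior and 0 in posterior. With the test statistic read as a normal deviate, 1 was higher in anterior and 0 in posterior. Crest and muscle precursors, whose markers were higher in anterior as given above, also use several of these subunits, and their part was not tested.

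Among receptors other than integrins, 1 of 12 tested was called, 8.33% against 7.07% of all tested genes. The list median log2 ratio was -0.05. LRP4, a low-density lipoprotein receptor family gene, was higher in posterior at 15.0 and 20.7 FPKM (the authors' deposited table gives q = 0.00865). APP, whose product F-spondin binds, was the most abundant at 218 and 199 FPKM and was not called. The thrombospondin receptor genes CD47, at 55.4 and 48.1 FPKM, and LRP1, at 56.2 and 62.5 FPKM, were not called. LRP8, which encodes a receptor that F-spondin can bind, was at 15.1 and 11.6 FPKM (the authors' deposited table gives q = 0.0955).

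Hyaluronan and the enzymes that turn versican over set how far that proteoglycan accumulates. In this list 1 of 10 tested genes was higher in posterior, HAPLN1, and 2 in anterior. The share called was 30%, against 7.07% of all tested genes. HAS2, the main hyaluronan synthase gene of early embryos, was at 28.2 and 20.9 FPKM (the authors' deposited table gives q = 0.0411). ADAMTS5, a versican-cleaving protease gene, was at 1.96 and 0.770 FPKM (the authors' deposited table gives q = 0.0358). HYAL2, a hyaluronidase gene, was the most abundant of those not called, at 41.8 and 51.0 FPKM. The list median was -0.03 on the log2 scale. At a q threshold of 0.01, and with the test statistic read as a normal deviate, 0 calls were left in either direction. At 1.5-fold, 1 was left in anterior and 0 in posterior.

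Enzymes that build chondroitin sulfate gave 1 call among 16 tested, 6.25% against 7.07% of all tested genes, and a median log2 ratio of -0.05. CSGALNACT1, which starts the chondroitin chain, was higher in anterior at 2.87 and 1.01 FPKM (the authors' deposited table gives q = 0.0197). CHST14, a sulfotransferase gene, was the most abundant at 77.5 and 73.6 FPKM and was not called.

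Matrix proteins that bind or process the members included 4 called in posterior and 1 in anterior, of 12 tested. That is 41.7% called, against 7.07% of all tested genes. FBLN2, a fibulin that binds versican and fibronectin, was at 39.7 and 143 FPKM, the collagen VI chains COL6A1 and COL6A2 at 12.1 and 20.8 and at 10.8 and 23.4 FPKM, and COL5A1 at 48.1 and 63.9 FPKM. FBLN1, which binds the same partners, was higher in anterior at 21.7 and 15.4 FPKM (the authors' deposited table gives q = 0.0129). COL6A3, another collagen VI chain gene, was higher in anterior by value, at 14.2 and 11.3 FPKM. It was not called (the authors' deposited table gives q = 0.112). DCN, which encodes decorin, was the most abundant and not called, at 654 and 617 FPKM. The fibulin genes, as ligands of versican and fibronectin, were thus called in opposite directions. The call of FBLN1 ended at a q threshold of 0.01, at 1.5-fold and with the test statistic read as a normal deviate. Of the 4 posterior calls, 3 were left at a q threshold of 0.01, 3 at 1.5-fold and 2 with the normal deviate. COL5A1, 1.33-fold higher in posterior (the authors' deposited table gives q = 0.0103), was the call that ended at 0.01 and at 1.5-fold.

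Among 7 tested matricellular genes outside the member set, 2 were called in posterior and 1 in anterior, with a median log2 ratio of 0.48. That is 42.9% called, against 7.07% of all tested genes. SMOC1 was at 33.0 and 65.8 FPKM and SMOC2, the nearest tested gene above THBS2 on chromosome 3, at 2.07 and 10.4 FPKM. CYR61, a CCN family gene, was at 31.7 and 21.3 FPKM (the authors' deposited table gives q = 0.0264), and SPARC, the most abundant of the list, at 364 and 344 FPKM was not called. Of the TGF-beta pathway, whose signals induce TGFBI, periostin and tenascin-C in many cells, 2 of 8 tested were called, each higher in posterior. The share called was 25%, against 7.07% of all tested genes. TGFBR2, a receptor, was at 2.73 and 5.83 FPKM, and LTBP1, which holds the latent ligand in the matrix, at 41.6 and 67.5 FPKM. Without rows that share a locus, which takes away LTBP1, 1 call was left, and with the normal deviate 0 were left. The ligand gene TGFB2 was higher in anterior by value, at 38.3 and 29.1 FPKM, and was not called (the authors' deposited table gives q = 0.0619). SMAD3, which carries the signal to the nucleus, had the highest mean of both groups among those not called, at 42.4 and 46.5 FPKM.

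Relatives of the members were at low levels in this tissue. Of 13 with a row, 5 were tested and 8 were not, and the highest was THBS4 at 6.40 and 7.30 FPKM, which was not called. The tenascin genes TNR and TNN and the lecticans ACAN and BCAN, relatives of versican, were under 1 FPKM in both groups, with TNR listed at 0 in posterior. RSPO2, a secreted Wnt co-activator that shares a thrombospondin repeat with F-spondin, was the single relative called, at 5.46 and 2.65 FPKM (the authors' deposited table gives q = 0.00139). That call is 20% of the 5 tested, against 7.07% of all tested genes. TNC and VCAN were thus at higher levels than any matched gene of their families in both groups, all per transcript length.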

How the data were processed

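Poly(A)-selected RNA, about 200 ng of total RNA per library, was read in stranded libraries as 50 nt single-end reads, per the labels' protocols. The submitters' processing notes list TopHat2 2.1.0, FastQC, Cuffdiff and Cufflinks 2.2.1 with the build galGal4, and give no roles. Per the file headers, the deposited Cuffdiff table gives 1 FPKM value per group, a p-value and q-value, and a test statistic, a score without fixed range. The annotation release is not given, nor are the normalization options, in the sources used here.

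Log2 ratios were computed from FPKM without a pseudocount, because 610 cells of the deposited log2 column were not numbers. Benjamini-Hochberg adjustment over 10529 tested rows gave the authors' q within 5.27e-07. The lowest p, 5e-05, was shared by 380 genes. Starts have 1 added, since the lowest in the table is 0. List genes were matched by symbol and, for 8 genes in all lists, by RefSeq synonyms of GRCg7b (4 partner and 4 marker genes). For a symbol with more than 1 row, the tested row with the highest mean was taken. Members and lists were chosen with earlier results of these data known. Every member is named; from each partner list up to 3 called genes per direction of largest log2 ratio and the most abundant uncalled gene are named, the other genes having been picked after their values were seen. FOXC2, NGFR, ETS1, TNR, TNN, ACAN, BCAN, ITGAV, ITGB5, COL5A1, CD47, LRP1 and LRP8 are such genes. So are PRRX1, TBX3, PECAM1, KDR, ERG, TGFB2, COL6A3, DES and MYOD1. The ratio and adjustment steps were tested on simulated data. Python 3.11.15, pandas 2.3.3, scipy 1.17.1 and matplotlib 3.10.9 were used.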

Additional observations from a re-analysis of the deposited data

How the results depend on the processing

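No paired analysis was possible because the table holds 1 value per group, and leaving out replicates was not possible for the same reason. TNC, OSF-2 and SPON1 kept their call and direction under q thresholds of 0.01 and 0.1 and a minimum mean of 1 FPKM. They also kept them without rows sharing a locus, at 1.5-fold, and with the test statistic read as a normal deviate. All of these but the normal deviate were fixed in advance by the deposited values. The 3 genes had q = 0.00139, shared no locus, and lay above the minimum mean and 1.5-fold. Under Bonferroni adjustment 0 members, 0 partner genes and 0 of all tested genes were called in either direction, because the lowest deposited p gives an adjusted p of 0.526 over 10529 genes, so that the log2 ratios of TNC (-2.67), OSF-2 (-2.21), SPON1 (0.86) and FN1 (-0.37) lost their call by construction. At an unadjusted p under 0.05 the authors' deposited table has 6 of the 8 tested members. The share of all tested genes under that p was not counted, so no background stands beside this count. FN1 also lost its call at a q threshold of 0.01, at 1.5-fold and with the test statistic as a normal deviate (log2 ratio -0.37 throughout). At a q threshold of 0.1 THBS2 (0.71) and VCAN (0.35) were called, and 3 of the 8 tested members were then higher in posterior. Across the whole table that looser threshold let through 487 of 10529 tested rows toward posterior, against 376 at 0.05. Toward anterior it let through 473, against 368. Partner genes higher in anterior numbered 11, and 5 at a q threshold of 0.01, 6 at 1.5-fold and 1 with the normal deviate, which left 4 of 11 in posterior. Over all tested genes, 368 were higher in anterior and 245 at a q threshold of 0.01, and with the normal deviate 129 were higher in anterior and 116 of 376 in posterior. The normal deviate was added after the data were seen, and 97.9% of deposited p-values lie under the p it gives. The cause was not tested. Pseudocounts of 0.1 and 1 FPKM reversed no log2 ratio of a tested member, nor can they, since they leave the higher group higher. Centring on the median of tested genes (a shift of 0.00459) and equal sums of FPKM (a shift of 0.03) also reversed none. Both shifts were smaller in size than the ratio of every tested member (the smallest was -0.0367 for THBS1), so no reversal was possible. With a pseudocount of 1 FPKM the ratio of THBS2 fell from 0.71 to 0.43. With equal sums that of THBS1 became -0.0076. Depth is unknown, which limits what can be said of SPON2 and THBS2.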
